A study of Mus musculus with 6 samples.

Results

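Serotonin and histamine are monoamines that cells make from an amino acid, store, release and break down. The 8 genes described here cover those steps and were chosen by symbol, and all 8 were found among the 37991 genes of the count files. The cells were group 2 innate lymphoid cells (ILC2), which make type 2 cytokines, sorted as lineage-negative cells with Thy1 and ST2 from mice homozygous for an Id1 transgene (Id1tg/tg). The transgene is driven by the proximal lck promoter and was bred from FVB/N onto C57BL/J, all groups carried it, and no mice without it and no ages are given. The 3 groups had 2 libraries each, from ILC2 of mesenteric lymph nodes (MLN) that spent 1 week in culture with the cytokines IL-33, IL-25 and IL-7 (each at 10 ng/ml), from thymus ILC2 taken directly, and from fresh MLN ILC2 that were not cultured. The labels call the samples duplicates and do not say whether these came from separate animals or cultures, so the spread behind each p is that between libraries and may be technical.

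Serotonin is made in 2 steps. Tryptophan hydroxylase, encoded by Tph1 outside the brain, adds a hydroxyl group to tryptophan with the cofactor tetrahydrobiopterin, and the decarboxylase encoded by Ddc removes the carboxyl group. Histamine is made in a single step by histidine decarboxylase, encoded by Hdc. Slc18a2 encodes VMAT2, which pumps both amines into vesicles, and Slc6a4 encodes SERT, which takes serotonin back up at the cell surface. Monoamine oxidases, encoded by Maoa and Maob, break down serotonin, and histamine N-methyltransferase, encoded by Hnmt, inactivates histamine inside cells. In immune tissue these genes are best known from mast cells, basophils and platelets, and Tph1 is known to be induced in activated mouse ILC2.

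The upstream sequences of the 3 genes that carry the main changes are shown because Tph1 and Hdc rose together in culture while Slc18a2 fell. They run from 250 bases before to 50 after a start site, are from RefSeq on GRCm38.p6 and are written 5′ to 3′ on the gene's own strand. RefSeq had such windows for 7 of the 8 genes and gives 2 start sites for Tph1, at chr7:46672488-46672787 and chr7:46667328-46667627, both on the minus strand. The Hdc window is chr2:126618629-126618928 on the minus strand and the Slc18a2 window chr19:59260628-59260927 on the plus strand. Capitals mark matches on either strand to 7 motifs. For the GATA factors, which include the ILC2 regulator Gata3, the motif searched was AGATAA. For E proteins, the factors that Id1 inhibits, it was the E-box CANNTG. The STAT motif was TTCNNNGAA and the AP-1 motif TGANTCA, and the NF-kB motif was GGG followed, after any 5 bases, by CC. The motif of the cAMP response element was TGACGT, and the last was the promoter motif CCAAT. The palindromic motifs read the same on both strands and were counted once.
Tph1, upstream start site: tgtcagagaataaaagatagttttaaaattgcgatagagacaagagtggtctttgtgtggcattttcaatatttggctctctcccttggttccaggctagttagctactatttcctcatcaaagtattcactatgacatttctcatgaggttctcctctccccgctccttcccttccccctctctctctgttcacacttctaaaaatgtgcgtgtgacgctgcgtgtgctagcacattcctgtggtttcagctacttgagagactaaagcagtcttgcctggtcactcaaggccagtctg
Tph1, downstream start site: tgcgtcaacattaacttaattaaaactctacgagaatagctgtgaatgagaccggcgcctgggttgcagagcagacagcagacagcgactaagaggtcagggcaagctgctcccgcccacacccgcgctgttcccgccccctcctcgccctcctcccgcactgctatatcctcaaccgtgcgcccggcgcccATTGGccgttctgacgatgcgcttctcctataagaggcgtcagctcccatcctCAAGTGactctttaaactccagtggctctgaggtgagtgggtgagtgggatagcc
Hdc: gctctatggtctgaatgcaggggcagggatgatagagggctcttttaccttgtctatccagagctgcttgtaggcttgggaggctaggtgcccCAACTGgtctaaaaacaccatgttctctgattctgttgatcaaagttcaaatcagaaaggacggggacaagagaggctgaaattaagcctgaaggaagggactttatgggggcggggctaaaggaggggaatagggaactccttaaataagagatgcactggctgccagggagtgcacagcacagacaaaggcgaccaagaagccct
Slc18a2: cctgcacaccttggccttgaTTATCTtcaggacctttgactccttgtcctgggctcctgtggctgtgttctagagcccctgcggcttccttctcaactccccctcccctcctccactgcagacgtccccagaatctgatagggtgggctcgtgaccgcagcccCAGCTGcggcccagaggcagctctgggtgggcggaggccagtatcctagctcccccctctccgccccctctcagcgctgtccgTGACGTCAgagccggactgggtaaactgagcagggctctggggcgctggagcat
The upstream Tph1 window held no match to any of the 7 motifs. The downstream Tph1 window held 1 CCAAT match, found in 37.4% of the 32851 windows of that length in the RefSeq table, and 1 E-box, found in 72.3%. The Hdc window held 1 E-box. The Slc18a2 window held 1 AGATAA match, found in 11.2% of windows, 1 E-box, and the letters TGACGT on both strands of 1 overlapping stretch across the start site, a motif in 7.51% of windows. These matches describe letters only. The counts are per gene and do not tell which Tph1 start site was used.

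Library totals ran from 35280692 to 40578264 counts. All 10 ILC2 markers listed, among them Gata3, Il1rl1 (the ST2 chain) and Thy1, had counts in every library, with a summed level between 7501 and 9819 CPM. CPM stands for depth-scaled counts, computed on library totals multiplied by TMM factors. The 2 libraries of each group differed by more than sampling noise. Id1, which the transgene encodes, stood at 1.48 and 1.19 CPM in cultured MLN cells, 421.6 and 426.4 in thymus cells, and 434.2 and 468.7 in fresh MLN cells. It was low in both cultured libraries, so culture, cytokines and the loss of Id1 transcripts cannot be told apart in what follows. Cultured MLN and thymus cells differ in tissue of origin as well, so in that comparison tissue cannot be told apart from these either.

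Of the 8 genes, 7 passed the filter on low counts, a minimum equal to 10 counts at the median depth in at least 2 libraries, and were tested with edgeR's quasi-likelihood test over 16231 genes, and an adjusted p under 0.05 makes a call. In cultured against fresh MLN cells all 7 were called, 6 higher and 1 lower, where 77.6% of all genes tested were called, 39.4% higher and 38.1% lower, so the number called is not a result about these genes. In thymus against fresh MLN cells 4 were called, all higher, where 47.3% of all genes were called, 25.3% higher and 22.0% lower. In cultured MLN against thymus cells 7 were called, 4 higher and 3 lower, where 72.7% of all genes were called, 34.8% higher and 37.8% lower. Libraries of the compared groups did not overlap for 89.2% of all genes in cultured against fresh MLN cells, 72.8% in thymus against fresh MLN cells and 86.0% in cultured MLN against thymus cells, so a lack of overlap is common here. Maob and Slc6a4 passed the filter only through the cultured cells, so they had to differ there. Ddc reached the minimum in both thymus libraries, in cultured MLN replicate 1 and in no fresh MLN library. It thus passed only through thymus, and its calls as higher there are not free of the filter. Without Ddc the members called in thymus against fresh MLN cells were Maoa, Hdc and Slc18a2, all higher. Without Maob and Slc6a4, 4 of the other 5, Ddc among them, were higher and 1 lower in cultured against fresh MLN cells. In cultured MLN against thymus cells 2 of these 5 were higher and 3 lower. The 2 comparisons with fresh MLN share those libraries, and their values are given side by side, not as separate support. In such bulk samples fewer cells that express a gene and less RNA per cell cannot be told apart.

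**Figure D1:**
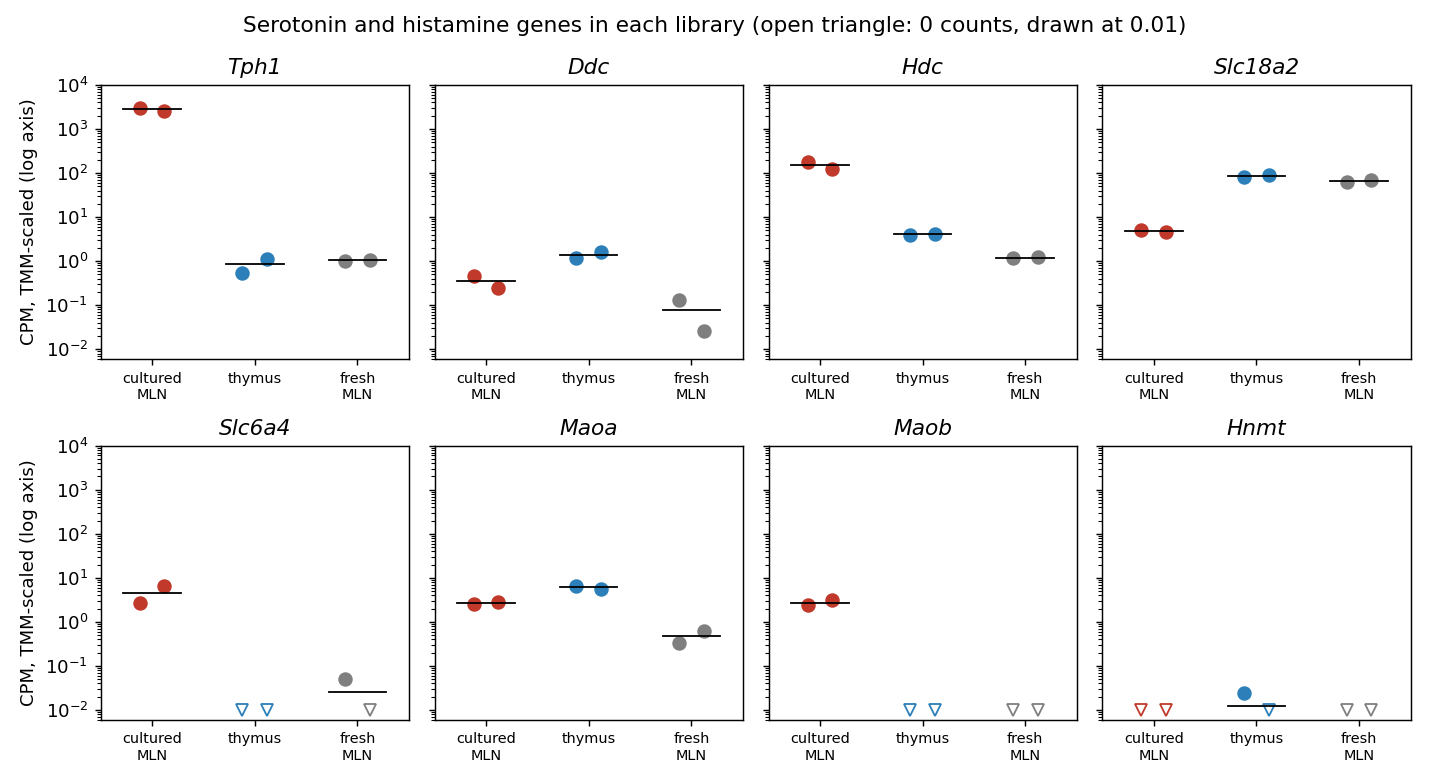
Level of each gene in each of the 6 libraries, as TMM-scaled CPM on a log axis, with 1 panel per gene, dots for libraries, lines for group means and open triangles for libraries with 0 counts. Tph1 and Hdc were highest in the cultured libraries, Slc18a2 was lowest there, Ddc and Maoa were highest in thymus, and Maob had counts in the cultured libraries only.

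The genes of the first step of both amines were far higher in cultured MLN cells than in the other groups. Tph1 (ENSMUSG00000040046) was at 3001 and 2615 CPM in cultured MLN cells, 0.542 and 1.14 in thymus cells, and 1.03 and 1.09 in fresh MLN cells. Both cultured libraries were high, and the thymus and fresh MLN libraries overlapped. Cultured cells averaged 2808 CPM ± 273 and fresh MLN cells 1.06 ± 0.0431 CPM (SD, n = 2 each). The ratio of these means was 2653, and the log2 fold change was 11.37 ± 0.18 (SE, edgeR adjusted p = 1.94e-14). This was the log2 fold change ranked 38 from the highest of 16231. Against thymus cells, at 0.843 CPM ± 0.425, the log2 fold change in cultured cells was 11.71 ± 0.18 (edgeR adjusted p = 2.37e-14), or 12.32 without thymus replicate 2. No difference in Tph1 between thymus and fresh MLN cells passed the test (log2 fold change -0.34 ± 0.30, edgeR adjusted p = 0.378). That last value rests on single libraries, since without thymus replicate 1 it was 0.12 (edgeR adjusted p = 0.765) and without thymus replicate 2 it was -0.95 (edgeR adjusted p = 0.021). The paralog Tph2, which serves the brain, had 1 count, in a cultured library.

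Hdc (ENSMUSG00000027360) rose in culture as well and was also higher in thymus than in fresh MLN cells. It was at 179.2 and 120.4 CPM in cultured MLN cells, 4.02 and 4.12 in thymus cells, and 1.16 and 1.25 in fresh MLN cells. The groups did not overlap, with cultured cells highest and thymus cells between the others. In cultured against fresh MLN cells the log2 fold change was 6.96 ± 0.21 (edgeR adjusted p = 3.63e-12), and against thymus cells 5.20 ± 0.18 (edgeR adjusted p = 1.76e-11). The value for thymus against fresh MLN was 1.76 ± 0.27, a 3.38-fold difference (edgeR adjusted p = 0.000182).

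Ddc (ENSMUSG00000020182), the gene of the second step of serotonin synthesis, was highest in thymus, not in culture. It was at 0.453 and 0.248 CPM in cultured MLN cells, from 15 and 9 counts, at 1.21 and 1.62 in thymus cells, from 49 and 61 counts, and at 0.128 and 0.0266 in fresh MLN cells, from 5 and 1 counts. The groups did not overlap, and all levels were low. Only the thymus libraries carried Ddc through the filter on low counts, so its calls as higher in thymus are not free of that filter. Ddc was higher in thymus than in fresh MLN cells by a log2 fold change of 4.12 ± 0.56 (edgeR adjusted p = 5.73e-05), which became 5.57 without fresh MLN replicate 1 and 3.42 without fresh MLN replicate 2. In cultured against thymus cells it was lower, with a log2 fold change of -2.01 ± 0.44 (edgeR adjusted p = 0.00106). Cultured cells exceeded fresh MLN cells by a log2 fold change of 2.10 ± 0.70 (edgeR adjusted p = 0.0143). That call was lost without cultured MLN replicate 1 (1.63, edgeR adjusted p = 0.116) and without fresh MLN replicate 2 (1.40, edgeR adjusted p = 0.109), and without fresh MLN replicate 1 the value was 3.55.

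The vesicular transporter fell in culture, where Tph1 and Hdc rose. Slc18a2 (ENSMUSG00000025094) was at 5.22 and 4.52 CPM in cultured MLN cells, 81.7 and 90.8 in thymus cells, and 62.5 and 68.6 in fresh MLN cells. Both cultured libraries were far below all 4 others, and thymus lay above fresh MLN without overlap. The log2 fold change of cultured over fresh MLN cells was -3.75 ± 0.10 (edgeR adjusted p = 1.84e-12), with fresh MLN cells 13.5-fold higher. Against thymus cells it was -4.15 ± 0.10 (edgeR adjusted p = 1.01e-12). In thymus against fresh MLN cells it was higher by 0.40 ± 0.08 on the log2 scale, a 1.32-fold difference (edgeR adjusted p = 0.0014). In the later annotation used for symbols, Slc18a2 exons overlap an antisense gene, Gm29261, which the count files do not list. The library kit keeps strand, but the strand setting of the counting is not given in the sources used here, so antisense reads may be in its counts.

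The surface transporter and the second oxidase had counts mainly or wholly in culture. Slc6a4 (ENSMUSG00000020838) was at 2.69 and 6.37 CPM in cultured MLN cells, 0 and 0 in thymus cells, and 0.0514 and 0 in fresh MLN cells. The cultured libraries held 89 and 231 counts and so differed widely from each other, while fresh MLN held 2 counts in all, both in replicate 1. The counting ratio of cultured to fresh MLN cells was 176 (exact 95% interval 48.5 to 1460), and against thymus cells Slc6a4 was at least 120-fold higher, with 3 counts set over the thymus group. Replicate 2 held 231 of the 320 cultured counts behind both values. The fitted log2 fold change of cultured over fresh MLN cells, which depends on the prior count where a group has so few counts, was 7.27, and it was 6.52 without cultured MLN replicate 2, 10.40 without fresh MLN replicate 1 and 6.37 without fresh MLN replicate 2. Against thymus cells the fitted value was 10.41, and 9.67 without cultured MLN replicate 2. No fold is given for thymus against fresh MLN, where both groups lie under that floor. Maob (ENSMUSG00000040147) was at 2.38 and 3.12 CPM in cultured MLN cells and had no counts in any thymus or fresh MLN library. It was at least 70.6-fold higher in cultured than in fresh MLN cells and at least 72.1-fold higher than in thymus cells. Floors of 3 counts equal between 0.0739 and 0.0905 CPM in a library, and floors and counting intervals cover counting error only.

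Maoa (ENSMUSG00000025037), the oxidase that prefers serotonin, was at 2.54 and 2.84 CPM in cultured MLN cells, 6.68 and 5.58 in thymus cells, and 0.334 and 0.637 in fresh MLN cells. Thymus was highest and fresh MLN lowest, with no overlap. It was higher in thymus than in fresh MLN cells by a log2 fold change of 3.66 ± 0.27 (edgeR adjusted p = 1.96e-07) and in cultured than in fresh MLN cells by 2.47 ± 0.29 (edgeR adjusted p = 4.44e-06). In cultured against thymus cells it was lower, at -1.19 ± 0.21 (edgeR adjusted p = 0.000232). The paralogs were thus highest in different groups, Maoa in thymus and Maob in culture. Hnmt (ENSMUSG00000026986) had 1 count over all 6 libraries, in thymus replicate 1, was not tested, and was not detectable at this depth in the other libraries.

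**Figure D2:**
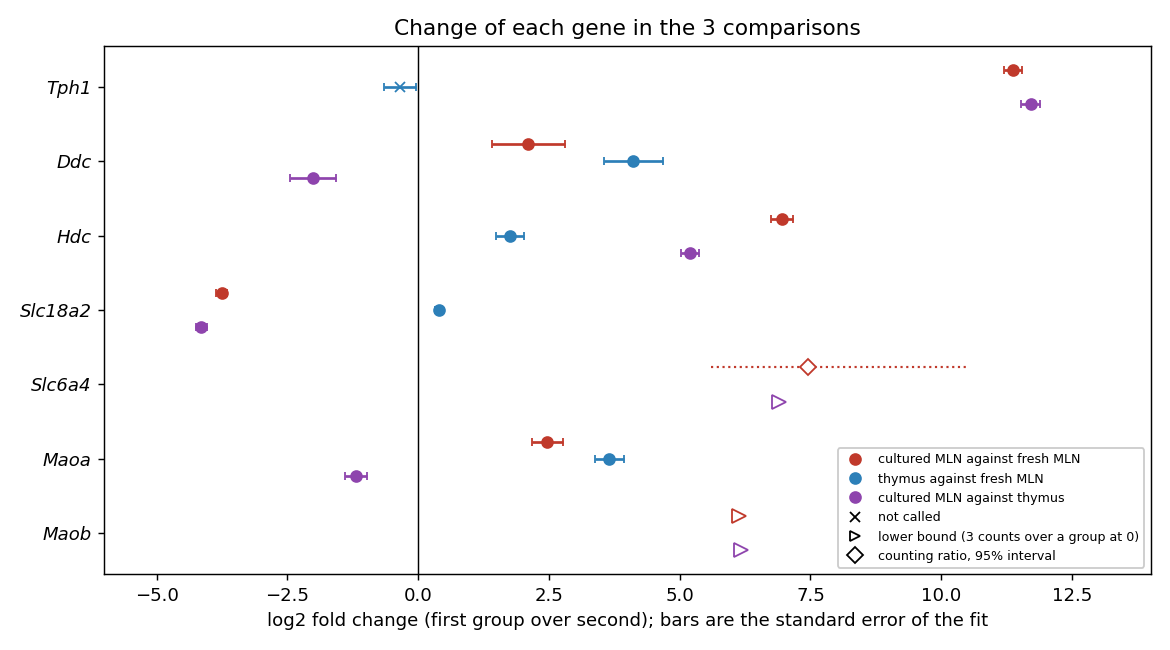
Log2 fold change of the 7 tested genes in each of the 3 comparisons, first named group over second, with bars for the standard error. Open triangles are lower bounds against a group without counts and the open diamond is the counting ratio of Slc6a4 with its 95% interval. Cultured against fresh MLN values reach 11.37 for Tph1 and -3.75 for Slc18a2, and the Tph1 value in thymus against fresh MLN, drawn as a cross, was not called.

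Set per kilobase of exon, so that genes can be compared with each other, the leading gene of the set differed between cultured and uncultured cells. In cultured MLN cells Tph1 led at 454.9 CPM per kb and Hdc followed at 23.4. Slc6a4 at 0.999, Maob at 0.986, Slc18a2 at 0.932 and Maoa at 0.645 CPM per kb came next. The 2 libraries of Slc6a4, at 0.593 and 1.41 CPM per kb, spanned the values of the other three, so those 4 genes have no clear order. Ddc was lowest of the counted genes, at 0.0785 CPM per kb. In thymus cells the order was Slc18a2 at 16.5, Maoa at 1.47, Hdc at 0.637, Ddc at 0.317 and Tph1 at 0.137 CPM per kb. In fresh MLN cells it was Slc18a2 at 12.5, Hdc at 0.188, Tph1 at 0.171, Maoa at 0.117 and Ddc at 0.0174 CPM per kb. Hdc and Tph1 lay close there, with libraries at 0.181 and 0.195 for Hdc against 0.167 and 0.176 for Tph1. Exon lengths are unions over the isoforms of a later annotation, so levels of genes with unused exons are understated.

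Tryptophan hydroxylase needs tetrahydrobiopterin, and all 8 genes of its supply were tested. Gchfr, a regulator of Gch1, and Pcbd1, which recycles the cofactor, reached the filter's minimum in cultured libraries only, so they had to differ there and are left out of the counts and medians with cultured cells. Of the other 6 genes 4 rose and 2 fell in cultured against fresh MLN cells, with a median log2 fold change of 0.30 beside -0.01 over all genes. The smallest rises rest on single libraries: Qdpr, at 0.21, was not called without cultured MLN replicate 2 (0.10) or without either fresh MLN library (0.19 and 0.22) and was -0.013 with library totals alone, and Pcbd2, at 0.38, was not called without fresh MLN replicate 1 (0.21) or without either cultured library (0.38 and 0.40). Gch1, the rate-limiting enzyme of tetrahydrobiopterin synthesis, was at 93.7 and 93.4 CPM in cultured, 15.8 and 14.8 in thymus, and 5.53 and 6.06 in fresh MLN cells. It rose by a log2 fold change of 4.01 ± 0.09 in cultured against fresh MLN cells (edgeR adjusted p = 2.5e-13). Pts, which acts right after Gch1, had a log2 fold change of -1.51 ± 0.08. Between thymus and fresh MLN cells 3 of the 8 rose and 1 fell, with a median of 0.27 beside 0 over all genes, or 0.17 with Gchfr, without counts in both groups, left out and Pcbd1, with 1 count, at its bound. Gch1 rose there by 1.40 ± 0.09, and Spr, the last enzyme of the synthesis, had a log2 fold change of -0.42 ± 0.11, a call lost without thymus replicate 1 (-0.29, edgeR adjusted p = 0.0741). In cultured MLN against thymus cells 1 of those 6 rose and 2 fell, with a median of 0.04 beside -0.06 over all genes: Gch1 at 2.61 ± 0.08, Pts at -1.88 ± 0.08 and Spr at -0.52 ± 0.12. Of all genes tested, 77.6% were called in cultured against fresh MLN, 47.3% in thymus against fresh MLN and 72.7% in cultured MLN against thymus.

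Of 13 genes of tryptophan uptake and of the pathways that compete for tryptophan, 12 were tested. Ido1 and Ido2 reached the filter's minimum in cultured libraries only, so they had to differ there. Of the other 10 genes 4 rose and 4 fell in cultured against fresh MLN cells, where 77.6% of all genes were called. Their median log2 fold change was -0.25 beside -0.01 over all genes. Slc7a5, the light chain of the LAT1 transporter that carries tryptophan, was at 259.8 and 257.4 CPM in cultured, 39.3 and 37.3 in thymus, and 16.8 and 15.2 in fresh MLN cells. Its log2 fold change was 4.01 ± 0.08 in cultured against fresh MLN (edgeR adjusted p = 8.02e-14) and 2.76 ± 0.07 against thymus cells. Ido1, which opens the kynurenine pathway, was at 13.3 and 17.2 CPM in cultured, 0 and 0 in thymus, and 0.103 and 0.0531 in fresh MLN cells. Its fitted log2 fold change in cultured against fresh MLN cells was 7.55 ± 0.32, and it was at least 400-fold higher than in thymus cells. Its paralog Ido2 had a fitted log2 fold change of 5.45 ± 0.59 against fresh MLN, whose 4 counts were all in replicate 2, so that the value was 9.50 without that library and 4.47 without fresh MLN replicate 1. It was at least 63.1-fold higher than in thymus cells. Without these paralogs 5 genes rose and 2 fell in cultured MLN against thymus cells, where 72.7% of all genes were called. The median was 0.37 beside -0.06 over all genes. Of these rises Slc7a8, at 0.35, was not called without cultured MLN replicate 1 (0.32) or thymus replicate 1 (0.20). Kmo was among the 4 that fell in cultured against fresh MLN cells, at -0.93. That call was lost without cultured MLN replicate 1 (-0.86) or fresh MLN replicate 1 (-0.68). Over all 12, thymus against fresh MLN gave 3 that rose and 5 that fell, where 47.3% of all genes were called. The median was -0.42, or -0.35 with genes at 0 set to their bound, beside 0 over all genes. Slc7a5 rose there by 1.26 ± 0.08, Il4i1, an amino acid oxidase, had a log2 fold change of -1.36 ± 0.19, and Kmo, of the kynurenine pathway, one of -1.25 ± 0.31, a call lost without fresh MLN replicate 1 (-0.99, edgeR adjusted p = 0.054). Others of these calls also rested on single libraries: Tdo2 was called lower in the full fit but not without any 1 of the 6 libraries (-1.04 to -0.73), Ido1, with 6 counts over the thymus and fresh MLN libraries, not without either thymus library or fresh MLN replicate 1, and Slc16a10 was called higher but not without fresh MLN replicate 1 (0.27) or thymus replicate 1 (0.26).

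Of 14 serotonin receptor genes, 7 had no count in any library and 3 were tested. Htr1b, an inhibitory G protein-coupled receptor, was at 63.5 and 53.3 CPM in cultured, 0.591 and 0.691 in thymus, and 0.257 and 0.239 in fresh MLN cells. Cultured libraries were high and the groups did not overlap. Its log2 fold change was 7.86 ± 0.18 in cultured against fresh MLN (edgeR adjusted p = 3.12e-13), 6.50 ± 0.15 against thymus, and 1.35 ± 0.35 in thymus against fresh MLN (edgeR adjusted p = 0.0066). Htr2a and Htr2b, also called higher in cultured against fresh MLN cells, were at or under 0.689 CPM in every library. Htr2a reached the filter's minimum in cultured libraries only. Htr2b reached it in both cultured libraries and otherwise only in thymus replicate 1, so it too passed through the cultured cells. The Htr2a call was lost without either cultured library (2.04 and 2.05) and without fresh MLN replicate 2 (1.65). The Htr2b call was lost without cultured MLN replicate 2 (1.65) and without fresh MLN replicate 2 (1.14), and its value was 4.27 without fresh MLN replicate 1. Of the 3 genes Htr1b alone was called in thymus against fresh MLN and in cultured MLN against thymus cells. The shares of all genes called there were 47.3% and 72.7%, and 77.6% in cultured against fresh MLN cells.

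Of 8 further genes, of histamine receptors and of histamine breakdown, 5 were tested. Hrh4, a histamine receptor of blood cells, was at 0.332 and 0.413 CPM in cultured, 16.4 and 20.3 in thymus, and 11.1 and 12.2 in fresh MLN cells. It was low in both cultured libraries, with a log2 fold change of -4.95 ± 0.22 against fresh MLN (edgeR adjusted p = 1.76e-10) and -5.60 ± 0.21 against thymus cells, and it was higher in thymus than in fresh MLN by 0.66 ± 0.13. Hrh2, another histamine receptor, was at 7.51 and 7.55 CPM in cultured, 3.85 and 3.83 in thymus, and 7.09 and 8.55 in fresh MLN cells. Cultured and fresh MLN overlapped for Hrh2, while thymus was lower than fresh MLN by a log2 fold change of -1.03 ± 0.15 and cultured cells were higher than thymus by 0.97 ± 0.15. Aldehyde dehydrogenases take on the products of amine oxidation. Aldh2 rose by 1.31 ± 0.08 in cultured against fresh MLN and by 1.74 ± 0.08 in thymus against fresh MLN, and Aldh7a1 rose by 2.08 ± 0.11 in cultured against fresh MLN and by 2.14 ± 0.11 against thymus cells. Over the 5 genes 3 rose and 1 fell in cultured against fresh MLN (median 0.64), where 77.6% of all genes were called. In thymus against fresh MLN 3 rose and 1 fell (median 0.59), where 47.3% of all genes were called. In cultured MLN against thymus cells 2 rose and 2 fell (median 0.06), where 72.7% of all genes were called. The medians over all genes were -0.01, 0 and -0.06, in that order.

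Of 16 further monoamine enzymes and transporters 15 had an entry in the files, 5 of these had no count in any library and 7 were tested. Th, Dbh and Pnmt, which make catecholamines, were among the 5 without counts. Slc22a3, a low-affinity surface transporter that carries serotonin and histamine, was at 0.0603 and 0.0276 CPM in cultured, 102.6 and 97.0 in thymus, and 14.3 and 17.5 in fresh MLN cells. Thymus was highest, and the cultured libraries held 3 counts in all. Thymus cells exceeded fresh MLN cells by a log2 fold change of 2.65 ± 0.10 (edgeR adjusted p = 1.92e-10). The counting ratio of fresh MLN over cultured cells was 368 (exact 95% interval 126 to 1790), and of thymus over cultured cells 2310 (791 to 11200). Tgm2, a transglutaminase that can attach serotonin to proteins, fell in cultured cells, with log2 fold changes of -4.29 ± 0.26 against fresh MLN and -4.39 ± 0.26 against thymus. Sult1a1, a sulfotransferase that acts on phenols and amines, had log2 fold changes of -2.11 ± 0.25 against fresh MLN and -1.39 ± 0.26 against thymus. For Sult1a1 in thymus against fresh MLN it was -0.73 ± 0.21, a call lost without fresh MLN replicate 1 (-0.62, edgeR adjusted p = 0.083) and without thymus replicate 2 (-0.53, edgeR adjusted p = 0.113). Below 1 CPM, Slc29a4 was called higher in thymus against fresh MLN but not without fresh MLN replicate 1 (1.81), and Slc18a1 lower but not without either fresh MLN library (-2.58 and -2.63) or thymus replicate 2 (-1.68). Aanat, which acetylates serotonin, reached the filter's minimum in cultured libraries only and Slc18a1, which encodes VMAT1, in fresh MLN libraries only. Over the other 5 genes 2 rose and 3 fell in cultured against fresh MLN (median -2.11), where 77.6% of all genes were called. In thymus against fresh MLN 2 rose and 2 fell (median 0.11), where 47.3% of all genes were called. In cultured MLN against thymus cells 1 rose and 3 fell (median -1.39), where 72.7% of all genes were called. Medians over all genes were -0.01, 0 and -0.06, in that order.

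**Figure D3:**
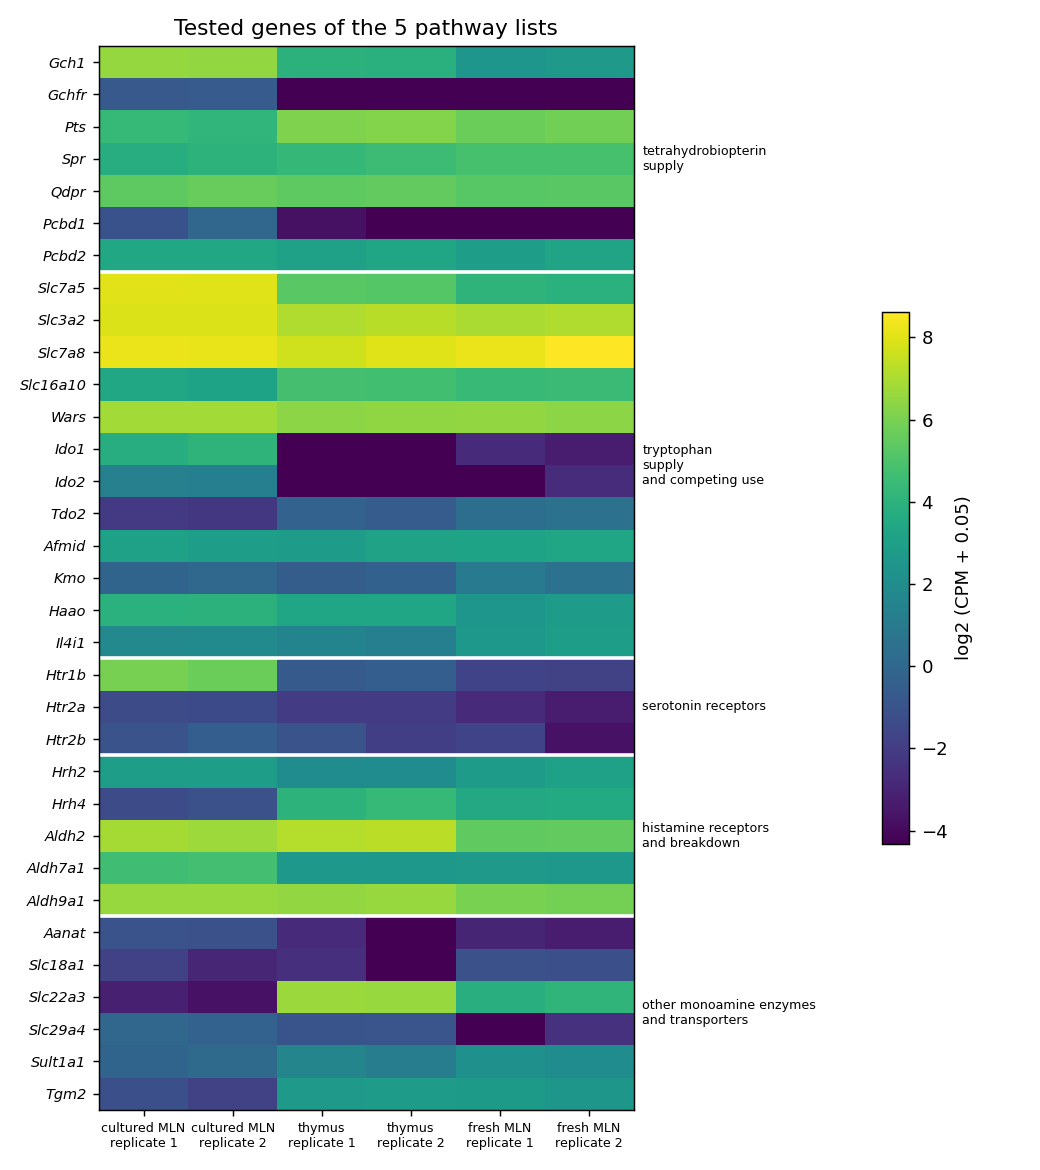
Level of 33 tested genes of the 5 pathway lists in each library, as log2 of CPM plus 0.05, with white lines between lists. Gch1, Slc7a5, Ido1 and Htr1b were highest in the cultured libraries, and Slc22a3 and Hrh4 were lowest there.

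Mast cells and basophils are the usual sources of histamine, so their markers were set beside these results. The summed level of the 18 markers was 843.9 and 1137 CPM in cultured, 838.8 and 854.1 in thymus, and 384.2 and 427.1 in fresh MLN cells, and 9 of the 18 were tested. Of these, the proteases Mcpt8, Mcpt1, Mcpt2 and Cma1 reached the filter's minimum in cultured libraries only. Of the other 5, 2 rose and 3 fell in cultured against fresh MLN, 3 rose and 2 fell in thymus against fresh MLN, and 2 rose and 2 fell in cultured MLN against thymus. The shares of all genes called in these comparisons were 77.6%, 47.3% and 72.7%, in that order. The defining markers did not move together. Mcpt8, a basophil protease, was at 587.6 and 866.4 CPM in cultured, 0.247 and 0.239 in thymus, and 0.231 and 0.186 in fresh MLN cells. Cd200r3, a receptor of basophils and mast cells, was likewise highest in culture, at 42.5 and 35.9 CPM, against 1.55 and 0.851 in thymus and 0.308 and 0.345 in fresh MLN cells (log2 fold change of cultured over fresh MLN 6.89 ± 0.23, edgeR adjusted p = 1.16e-11). Mcpt1 was at 6.73 and 13.8 CPM and Mcpt2 at 0.483 and 2.10 CPM in cultured cells, with no counts in any other library, at least 265-fold and 33.8-fold higher than in fresh MLN cells. Mitf, a transcription factor of mast cells, was at 20.5 and 16.9 CPM in cultured, 5.35 and 5.61 in thymus, and 9.79 and 10.6 in fresh MLN cells. Cpa3, mast cell carboxypeptidase, was at 0.0905 and 0.11 CPM in cultured, 117 and 121.2 in thymus, and 24.0 and 28.2 in fresh MLN cells, so it was low where Tph1 and Hdc were high and high where Slc18a2 was high. Fcer1a and Ms4a2, chains of the high-affinity IgE receptor, reached at most 0.0551 and 0.128 CPM in any library. Mcpt4 and Prss34 reached at most 0.0551 and 0.0266 CPM, Tpsb2 reached 0.151 and Cma1 0.965, both in cultured cells, and Mrgprb2 had no counts. Kit, which ILC2 precursors also express, was at 169.8 and 187.2 CPM in cultured, 698.3 and 709.7 in thymus, and 315.3 and 354.7 in fresh MLN cells. Proteases of the Mcpt and Tps families have close paralogs, and their counts are uncertain to that extent.

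**Figure D4:**
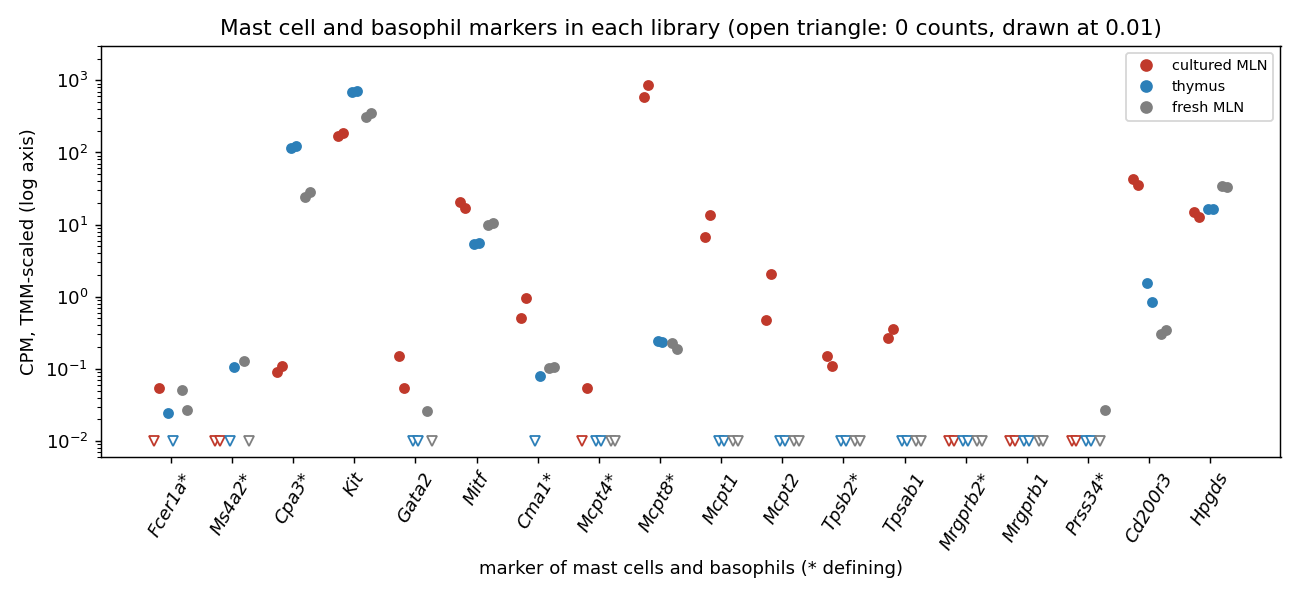
Mast cell and basophil markers in each library, as TMM-scaled CPM on a log axis, with stars for defining markers and open triangles for 0 counts. Mcpt8 was high and Cpa3 low in the cultured libraries, and Fcer1a, Ms4a2 and Mrgprb2 were at or near 0 in all 6.

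Platelets carry SERT and VMAT2. Of 9 platelet and megakaryocyte markers the summed level was 3.98 and 3.97 CPM in cultured, 9.19 and 9.23 in thymus, and 9.82 and 9.80 in fresh MLN cells, mostly from Itga2b and Gp1ba, both of which fell in culture. The defining platelet markers Pf4, Ppbp and Gp9 reached at most 0.0827, 0.221 and 0.193 CPM, and Gp6 had no counts. Macrophages and monocytes express Maoa, and their 12 markers summed to 21.2 and 20.3 CPM in cultured, 8.21 and 13.1 in thymus, and 93.8 and 100.2 in fresh MLN cells, with Cybb the largest part in fresh MLN cells. The defining macrophage markers, among them Csf1r, Adgre1, C1qa and C1qb, together gave 4.01 and 3.72 CPM in cultured, 1.53 and 2.85 in thymus, and 3.83 and 7.25 in fresh MLN cells. Of 10 macrophage markers tested, 6 were lower and none higher in thymus than in fresh MLN, where 47.3% of all genes were called. In cultured against both other groups 2 rose and 8 fell, where 77.6% and 72.7% of all genes were called. The 2 that rose were Cd68, at 16.9 and 16.0 CPM in cultured cells, and Adgre1, at 3.59 and 3.56. Cd68 was most of the cultured sum of the 12 markers, and Adgre1 most of the cultured defining sum. Of the 6 calls in thymus against fresh MLN, those of C1qa, C1qb and C1qc were each lost without fresh MLN replicate 2 (log2 fold changes of -1.03, -1.15 and -0.87) and without thymus replicate 1 (-1.01, -1.27 and -0.95). In cultured MLN against thymus cells the Csf1r call was lost without cultured MLN replicate 2 (-0.96) or either thymus library (-1.97 and -1.81). Of 7 markers of enterochromaffin and neuroendocrine cells, none was tested and the summed level was at most 0.292 CPM, with Chga at 1 count and Chgb at most at 0.133 CPM. Beyond these measurements the part of other cells in the results was not tested.

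The genes whose profile over the 6 libraries was nearest to each member are given by the distance between log2 CPM profiles centred on their own means, among about 11119 genes with at least 5 CPM in a group. For Tph1 they were Peg10, Il1r2 and Il5, at distances of 0.49, 0.69 and 0.74 where the median gene was at 13.31. Il5, the eosinophil growth factor, was at 8363 CPM in cultured, 2.90 in thymus and 2.60 in fresh MLN cells. For Hdc they were Smim3, Sorcs1 and Aebp1, at 0.47, 0.51 and 0.52, and for Maob Tent5c, Hmox1 and Gatm, at 0.46, 0.50 and 0.51. For Slc6a4 they were Filip1, Bnip3 and Gatm, at 0.88, 0.92 and 0.96. Maob and Slc6a4 had no or almost no counts outside culture. Their profiles there are set by the small count added before taking logs, so these neighbours are not measured likeness. Sorcs1, named for Hdc, had no counts in fresh MLN cells, so its likeness to Hdc there was not measured either. For Slc18a2 they were Slc9a9, Gypc and Tmem71, at 0.22, 0.26 and 0.30, where the median gene was at 4.59. Slc9a9, a sodium/proton exchanger of endosomes, was at 9.003 CPM in cultured, 163.4 in thymus and 133.6 in fresh MLN cells. For Maoa they were Nt5dc2, Pask and Smtn, at 0.63, 0.82 and 0.87, and for the low-count gene Ddc Angptl2, Robo1 and Tcf19, at 1.10, 1.17 and 1.22. With 6 libraries in 3 groups many genes share such profiles, so the distances describe these libraries only.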

How the data were processed

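Per the submitters' processing notes, reads were counted per gene with HTSeq 0.5.3p9 on mouse builds mm9 and NCBIM37; for the aligner, annotation release and strand setting, the value is not given in the sources used here. All deposited values are raw counts, with no normalization by the authors. Symbols came from GENCODE M21 by Ensembl identifier, which matched 32919 of 37991. Counts were filtered with filterByExpr, scaled with TMM and fitted in edgeR 4.0.16 (R 4.3.3) with 1 mean per group over all 6 libraries and no block, using the two-sided quasi-likelihood test with Benjamini-Hochberg adjustment over 16231 genes and 3 residual degrees of freedom. The test also drew each gene's spread toward that of other genes, with a prior worth 9.54 degrees of freedom. The procedure was tested on simulated data, with changes set only in genes with many counts. That test does not cover genes with few counts, such as Ddc, Maob and Slc6a4. The SE is the absolute log2 fold change over the square root of F and can be too small where the lower group has few counts. With 2 libraries against 2, an exact permutation test cannot reach 0.05 and was not run. Fold differences are ratios of mean CPM. Members, lists, motifs and tests were chosen with earlier results of these data known. Beside the members, the text names up to 3 called genes per pathway list and comparison, those that changed most with 1 CPM or more in the higher group, or else the most abundant one, and for other cell types the defining and the 2 most abundant markers; genes whose call 1 library decides, genes that reached the filter's minimum in 1 group only, Cd200r3, Mitf, Tph2, Th, Dbh and Pnmt were added after their values were seen. Leaving genes that reached the filter's minimum in 1 group only out of list counts and medians was chosen after the values were seen. Some genes of the lists enter the counts, medians and sums but are not reported here by name. Alternatives were other scalings, filters and tests (DESeq2 1.42.0), a replicate block and leaving out each library.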

Additional observations from a re-analysis of the deposited data

How the results depend on the processing

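Over the alternatives tried (DESeq2, RLE or upper-quartile factors, unscaled library totals, no filter on low counts or 5 CPM required in 2 libraries, a test against a 2-fold change, only the groups compared, a replicate block, and each library left out), Tph1, Hdc and Slc18a2 kept direction and call in cultured cells against both other groups. The Tph1 log2 fold change lay between 11.15 and 11.47 in cultured against fresh MLN. The 4 calls in thymus against fresh MLN (Ddc, Maoa, Hdc, Slc18a2) kept their direction, and Slc18a2 was not called against a 2-fold change. Of these, Ddc passed the main filter only through thymus, so its call is not free of that filter. Tph1 in thymus against fresh MLN reversed to 0.12 without thymus replicate 1 and was -0.95 without thymus replicate 2. With at least 5 CPM in 2 libraries, Ddc, Maob and Slc6a4 were not tested, and 4 members were called in cultured against fresh MLN and 4 in cultured MLN against thymus. The test against a 2-fold change called 1298 genes in thymus against fresh MLN, 5676 in cultured against fresh MLN and 4455 in cultured MLN against thymus, beside 7677, 12592 and 11793 without that minimum size; Ddc in cultured against fresh MLN and Maoa in cultured MLN against thymus lost their calls. Library totals alone moved the median of all genes to -0.23 in cultured against fresh MLN and to -0.32 in cultured MLN against thymus, where the split became 4254 higher and 7880 lower beside 5654 and 6139 with TMM; no member changed direction, and Qdpr, of the tetrahydrobiopterin genes, reversed to -0.013, from a TMM value of 0.21, in cultured against fresh MLN. Same-numbered libraries deviated together little (r of 0.02, 0.03 and 0.11 across genes, the last for thymus and fresh MLN). Such values cannot tell whether same-numbered libraries share an animal or day, which the labels do not say. With the replicate block 4, 7 and 7 members were called, as without it, and 8049, 12738 and 11944 genes. Leaving out a library leaves 1 in its group, which is then assumed to vary like the others. Depth limits Ddc, Maob and Slc6a4 most, and for Hnmt no difference was detectable.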
